A study of Cicer arietinum with 18 samples.

Results

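The late response to salicylic acid (SA) was measured in 3 of the 18 samples of a chickpea (Cicer arietinum) array series: the samples labelled as taken 27 h after SA treatment, 1 from each of the genotypes FLIP94-508C, ICC3996 and Lasseter. Each sample is a set of log2 ratios of treated to untreated RNA from the shoots (stem and leaf, pooled) of seedlings aged 14 days. The groups set beside it are the SA samples at 3 h and the 27 h samples after aminocyclopropane carboxylic acid (ACC) and after methyl jasmonate (MeJA), each with 1 sample per genotype and its own untreated control channel of the same genotype, age and tissue. Of these genotypes, Lasseter is known to be susceptible to ascochyta blight, FLIP94-508C moderately resistant and ICC3996 resistant. No source used here gives the doses.

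SA is a plant hormone that builds up at and beyond sites of infection by pathogens that feed on living tissue. It acts through NPR proteins, which bind SA and work with TGA transcription factors to switch on pathogenesis-related genes, and it underlies systemic acquired resistance. Jasmonates act in the response to wounding and to pathogens that kill their host, and ACC is the substrate from which plants make ethylene. In many plants the SA and jasmonate pathways restrain each other.

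The array held 715 cDNA features with identifiers that start with CA, LS or U. None of them matched the reference gene table (0 matches), and identifiers are paired with genes in no file at hand. Features are therefore named by identifier, without a function and without sequence, and shoot marker genes could not be checked. The authors averaged 3 biological replications, dye swaps included, into each column, so a sample has no error of its own and the genotypes are the replicates (n = 3). Ratios are taken to be treated over control. The order of the labels' channels makes this likely, and no source states it.

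Of the 715 features, 567 had a value in all 3 samples taken 27 h after SA, 44 in 2, 36 in 1 and 68 in none. A feature at least 2-fold from control lies at or beyond 1 or -1 on the log2 scale. In FLIP94-508C 30 features were at least 2-fold higher and 145 at least 2-fold lower than control, in ICC3996 26 and 75, and in Lasseter 32 and 115. The counts of higher features differed little between the genotypes, and the counts of lower features differed more. The sample medians were -0.26 for FLIP94-508C, -0.08 for ICC3996 and -0.21 for Lasseter (log2), so each sample as deposited was shifted below 0.

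**Figure D1:**
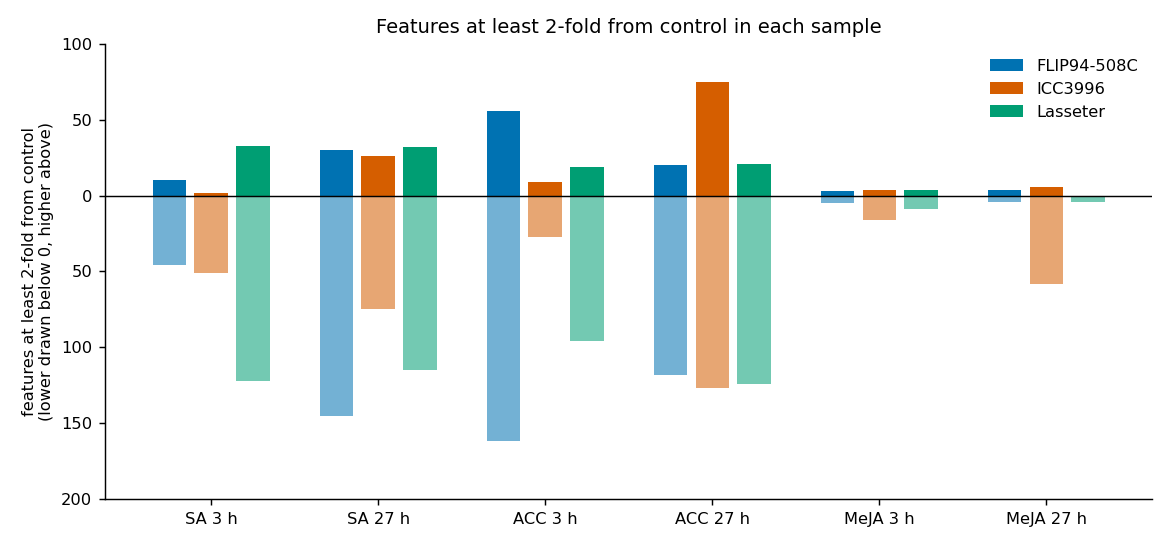
Number of features at least 2-fold from control in each of the 18 samples (vertical axis, higher features drawn above 0 in full colour and lower features below 0 in pale colour), by compound and harvest time, with 1 bar per genotype. Lower features outnumber higher ones in all 3 samples taken 27 h after SA, with 145 against 30 in FLIP94-508C.

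Over the 3 genotypes, 76 of 523 tested features changed 27 h after SA: 25 rose and 51 fell (moderated test in limma on the mean log2 ratio, adjusted p under 0.05). This is 14.5% of the features tested, 4.78% higher and 9.75% lower. The 25 rises had fitted means from 0.68 to 3.13 with a median of 1.17 (log2), and the 51 falls ran from -0.56 to -2.68 with a median of -1.30. Over all 523 features the median was -0.12. Of these fitted means, 6 among the rises and 4 among the falls were at least 4-fold, while 24 falls and 7 rises lay between 1 and 1.5 in size. Single values leaned the other way: counting every feature, FLIP94-508C had 44 values 4-fold or more below control against 8 that far above it, ICC3996 had 37 against 9, and Lasseter 24 against 13.

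The call of a single feature rested on a spread shared by all 18 samples. When only the 6 SA samples were fitted, with few residual degrees of freedom, 0 features passed in limma (129 at an unadjusted p under 0.05), and in limma on the 3 late SA samples alone 61 passed, 42 of them among the 76. After sample medians were subtracted 67 passed, 34 higher and 33 lower, in place of 25 and 51. The count was 13 without the FLIP94-508C sample, 50 without the ICC3996 sample and 29 without the Lasseter sample at 27 h, and it was 19 without all FLIP94-508C samples and 8 without all Lasseter samples.

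Features are ranked here among the 523 tested. U212 showed the largest rise. Its log2 ratio was 3.31 for FLIP94-508C, 2.09 for ICC3996 and 3.98 for Lasseter. All 3 genotypes were at least 4-fold above control, with ICC3996 the lowest. The mean was 3.13 (SE 0.51, 8.73-fold, adjusted p = 0.00361 in limma), and the call was lost without the Lasseter genotype (adjusted p = 0.0657). CA1198 followed among the tested features, although 2 untested features measured in all 3 genotypes had higher means. Its log2 ratio was 2.52 for FLIP94-508C, 2.13 for ICC3996 and 3.01 for Lasseter. The genotypes stood in the same order as for U212 but closer together. Its mean was 2.55 (SE 0.32, 5.87-fold, adjusted p = 0.00186 in limma), and it passed in all 6 leave-one-out fits, in which 1 late SA sample or 1 genotype was dropped.

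U291 showed the largest fall among tested features measured in all 3 genotypes. Its log2 ratio was -1.31 for FLIP94-508C, -3.10 for ICC3996 and -3.65 for Lasseter. All were below control, with FLIP94-508C closest to it. The mean was -2.68 (SE 0.37, adjusted p = 0.00187 in limma), and the call was lost without the Lasseter genotype (adjusted p = 0.0594). LS0263 came next among them, although 3 untested features measured in all 3 genotypes had lower means. Its log2 ratio was -1.46 for FLIP94-508C, -4.00 for ICC3996 and -0.93 for Lasseter. The ICC3996 sample stood far below the others. The mean of LS0263 was -2.13 (SE 0.57, adjusted p = 0.0239 in limma). Without that ICC3996 sample the fitted mean, which allows for the missing genotype, was -0.94 (adjusted p = 0.273 in limma). The call of LS0263 was lost in 5 of the 6 leave-one-out fits.

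**Figure D2:**
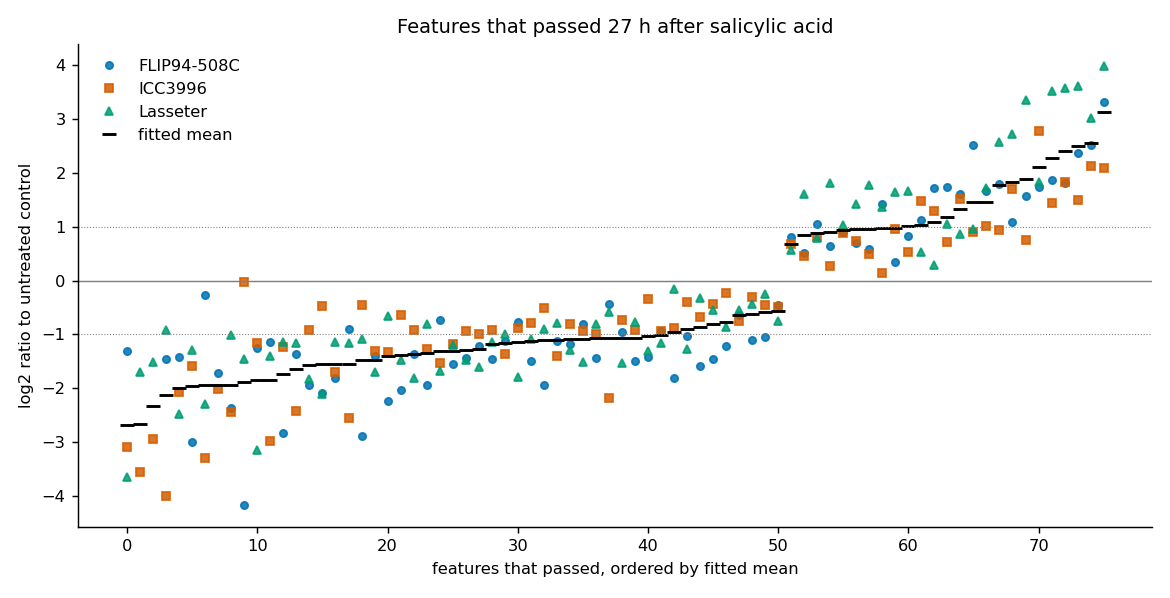
Log2 ratio to untreated control (vertical axis) of the 76 features that passed 27 h after SA, ordered by fitted mean (horizontal axis), with 1 symbol per genotype and a black dash for the fitted mean; dotted lines mark 2-fold. All measured values of the 25 rises lie above 0 and all those of the 51 falls below it.

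Rises and falls kept their direction across the genotypes. All 25 rises were measured in 3 genotypes and lay above control in each. Of the 51 falls, 48 were measured in 3 genotypes and 3 in 2, and every measured value was below control. Of the 511 tested features measured in all 3 genotypes, 302 had 1 sign throughout. A test of the mean favours features whose genotypes agree, so the agreement within the called features is a description.

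Agreement was also counted without a test, over the 567 features measured in all 3 genotypes. At least 2-fold in the same direction in every genotype were 30 features (5.29%), 14 higher (2.47%) and 16 lower (2.82%). This balance depended on the centring: after sample medians were subtracted there were 25 features, 17 higher and 8 lower. Of the 14 higher features 9 could be tested and 8 passed, and of the 16 lower ones 12 could be tested and 11 passed. Their choice on the same 3 values favours such passes, and over all tested features 14.5% passed. Only 2 of the 567 features were at least 2-fold higher in a genotype and at least 2-fold lower in another. Most 2-fold values were not shared by all: 14 features were higher and 90 lower in 1 genotype, and 12 were higher and 59 lower in 2. At a limit of 1.5-fold, 25 features were higher and 62 lower in all 3 genotypes.

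Across features, the 27 h ratios of FLIP94-508C and ICC3996 had a Pearson correlation of 0.59 and a Spearman correlation of 0.72 (575 features), those of FLIP94-508C and Lasseter 0.62 and 0.62 (592 features), and those of ICC3996 and Lasseter 0.57 and 0.62 (578 features). No pair of genotypes stood apart by Pearson correlation, while the Spearman correlation was highest for FLIP94-508C and ICC3996. These correlations are across features of 1 array design, which are not independent replicates. At 3 h the Pearson correlations for the same pairs were 0.22, 0.44 and 0.43, and the Spearman correlations were -0.01, 0.47 and 0.32.

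The size of the late response is given by genotype as a description, since 1 sample per genotype allows no test. Among the 25 rises the median ratio was 1.56 for FLIP94-508C, 0.93 for ICC3996 and 1.66 for Lasseter. Lasseter had the largest ratio in 16 of the 25 (64.0%) and ICC3996 the smallest in 15 (60.0%). Among the 302 tested features with 1 sign throughout, FLIP94-508C was the farthest from control in 52.0%, Lasseter in 34.1%, and ICC3996 was the closest to it in 52.3%.

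Among the falls the medians were -1.42 for FLIP94-508C, -0.94 for ICC3996 and -1.16 for Lasseter. FLIP94-508C had the lowest ratio in 22 of the 48 falls measured in all genotypes (45.8%). This was no more than its 52.0% among the 302 tested features with 1 sign throughout. Its sample also varied most over all features, with a scaled median absolute deviation of 0.84, against 0.35 for ICC3996 and 0.63 for Lasseter. Values at least 2-fold lower in only 1 genotype were most frequent in this widest sample, with 52 features for FLIP94-508C, 28 for Lasseter and 10 for ICC3996. Of features at least 2-fold higher in only 1 genotype, 4 belonged to FLIP94-508C, 1 to ICC3996 and 9 to Lasseter.

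**Figure D3:**
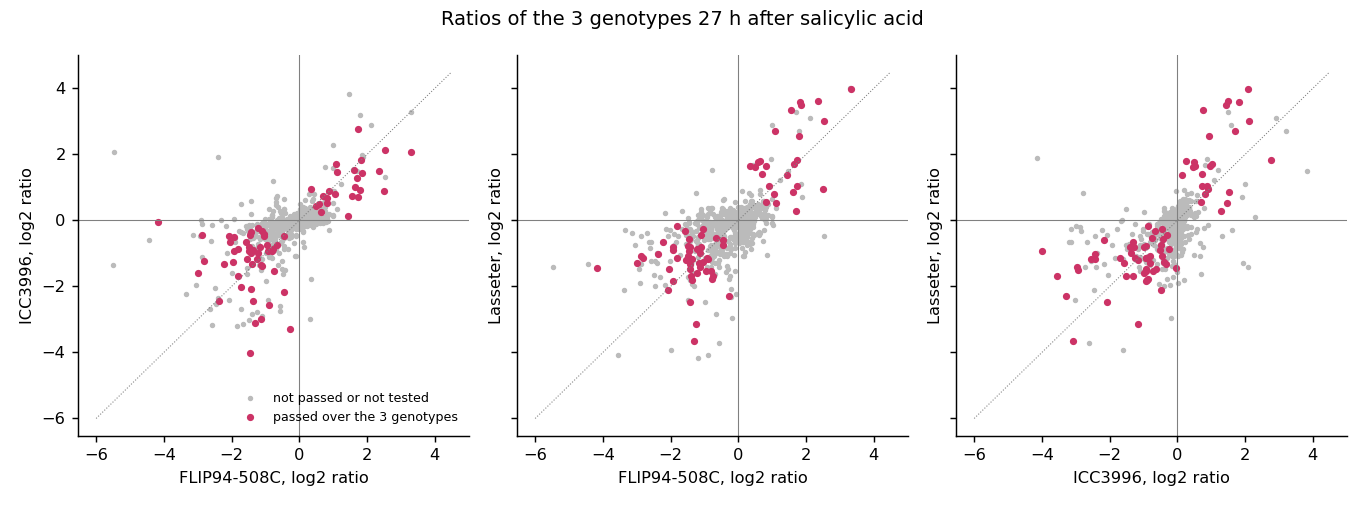
Log2 ratios 27 h after SA of each pair of genotypes (both axes, 1 point per feature measured in both), with the features that passed over the 3 genotypes in colour and the others in grey; the dotted line marks equal ratios. The coloured points lie in the lower left and upper right quadrants, and those of the rises lie mostly above the line against Lasseter.

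Among the features that passed, LS0240 and U398 varied least between genotypes. LS0240 was at 0.89 for FLIP94-508C, 0.89 for ICC3996 and 1.03 for Lasseter, a mean of 0.94 ± 0.08 (SD, n = 3; adjusted p = 0.0163 in limma). U398 was at -0.65, -0.74 and -0.54 in the same order, a mean of -0.64 ± 0.10 (SD, n = 3; adjusted p = 0.0384 in limma). Both means were below 2-fold. Neither call was stable: LS0240 was lost in 5 and U398 in 6 of 6 leave-one-out fits.

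CA0216 and LS0263 varied most. CA0216 was at -4.16 for FLIP94-508C, -0.04 for ICC3996 and -1.45 for Lasseter. Its ICC3996 sample was at the control level, and the mean of -1.88 ± 2.09 (SD, n = 3; adjusted p = 0.0321 in limma) rested on FLIP94-508C. Without that sample the fitted mean, which allows for the missing genotype, was -0.70 (adjusted p = 0.484 in limma). The extreme genotype differed between the 2 features, ICC3996 for LS0263 and FLIP94-508C for CA0216.

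The 27 h response was compared with the 3 h response to ask which changes were late. Of 523 features, 11 (2.10%) differed between the times, 9 higher (1.72%) and 2 lower (0.382%) at 27 h (limma, adjusted p under 0.05). Among the 25 rises, 6 were higher than at 3 h by this test. Among the 51 falls, 2 were lower than at 3 h and 1 was higher, having been lower still at 3 h. The difference was above 0 for 25 of 25 rises and below 0 for 46 of 51 falls, which the choice of these features on their 27 h values favours.

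LS0159 had the largest late increase among tested features measured in all 6 SA samples. At 3 h it was at -1.48 for FLIP94-508C, -0.60 for ICC3996 and -4.87 for Lasseter. At 27 h the ratios were 1.74, 2.77 and 1.83 in that order. The groups did not overlap, which the choice of the largest difference favours, and the sign turned from below to above control in each genotype. The difference was 4.43 (SE 0.80, adjusted p = 0.0125 in limma), and 3.29 without Lasseter (adjusted p = 0.0659), whose 3 h sample was the lowest. The call of LS0159 was lost in 5 of 9 leave-one-out fits.

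U212, the largest rise at 27 h, was at -0.34, 0.77 and -0.51 at 3 h in FLIP94-508C, ICC3996 and Lasseter. It was near control then and at least 4-fold above it at 27 h in every genotype. The difference was 3.15 (SE 0.73, adjusted p = 0.0369 in limma), and the call was lost in 6 of 9 leave-one-out fits, which here also dropped the 3 h samples. CA1198 was at -0.46, 0.51 and -0.06 at 3 h, and its difference was 2.56 (SE 0.46, adjusted p = 0.0125 in limma). The 2 largest falls did not pass this test. U291 was already at -2.54 for ICC3996 and -1.66 for Lasseter at 3 h, with no value for FLIP94-508C. Its difference was -0.70 (SE 0.60, adjusted p = 0.634 in limma). LS0263 was at 0.17, 0.46 and -0.24 at 3 h, with a difference of -2.26 (SE 0.81, adjusted p = 0.160 in limma).

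U102 and CA1173 turned from above to below control. U102 was at 0.81 for FLIP94-508C, 0.50 for ICC3996 and 1.13 for Lasseter at 3 h, and at -1.39, -1.31 and -1.70 at 27 h. The difference was -2.28 (SE 0.30, adjusted p = 0.000932 in limma). CA1173 was at 0.97, 0.47 and 1.05 at 3 h and at -1.11, -1.39 and -0.79 at 27 h. Its difference was -1.93 (SE 0.32, adjusted p = 0.00602 in limma). For both features the groups did not overlap, which their choice by the size of the difference favours. The spread between genotypes was small at each time. Each call was lost in 2 of 9 leave-one-out fits, where the ICC3996 or the Lasseter genotype was dropped. The 2 features also moved alike elsewhere: both were below control in 6 of 6 MeJA samples.

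The count of 11 between the times was 0 without the ICC3996 genotype, 1 without the Lasseter genotype, and 26 and 22 without the 3 h samples of FLIP94-508C and of ICC3996. It fell to 4 without the FLIP94-508C and to 3 without the Lasseter sample at 27 h, to 6 without the Lasseter sample at 3 h and to 4 without the FLIP94-508C genotype, and no feature passed in the fit of the SA samples alone.

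The late SA response was next set beside the late responses to the other compounds, which shows whether the same ratios appeared under another signal. No source used here says whether the compounds shared untreated plants, so values are given side by side. The 25 SA rises had a median of the mean ratios of 1.17 under SA, 0.38 under ACC and -0.20 under MeJA at 27 h, and 0.04 under SA at 3 h. The medians over all 523 features were -0.12, -0.20, -0.04 and -0.13 in that order. The 51 falls had medians of -1.30, -0.55, -0.18 and -0.57. Both lists had their smallest 27 h medians in size under MeJA. Over all features, the scaled median absolute deviation 27 h after MeJA was 0.26 for FLIP94-508C, 0.50 for ICC3996 and 0.23 for Lasseter. After SA it was 0.84, 0.35 and 0.63 in that order, so the MeJA samples were narrower except in ICC3996. Under ACC 18 of the 25 rises were above control and 44 of the 51 falls below it, while over all 523 tested features 209 were above and 314 below.

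**Figure D4:**
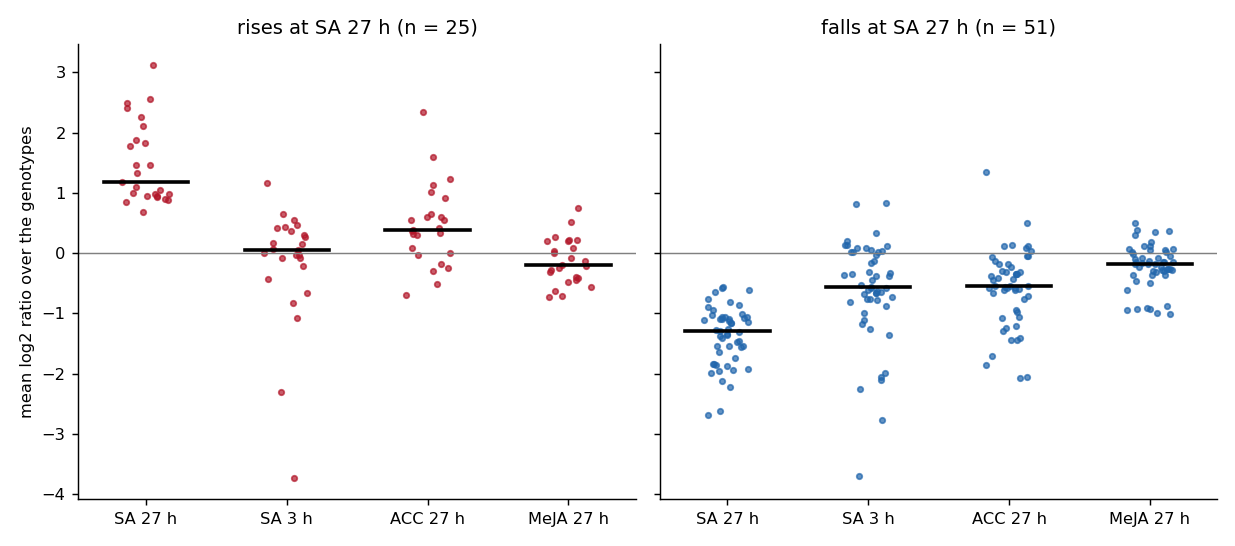
Mean log2 ratio over the genotypes (vertical axis) of the 25 rises and the 51 falls found 27 h after SA, in that group and in 3 other groups (horizontal axis), with 1 point per feature and a black line at the median. The medians of the rises are 1.17, 0.04, 0.38 and -0.20 from left to right.

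SA differed from ACC at 27 h for 7 of 523 features (1.34%), 4 higher (0.765%) and 3 lower (0.574%) under SA (limma, adjusted p under 0.05). Of these 7, 2 were SA rises and 2 were SA falls, lists that held 4.78% and 9.75% of the tested features and were chosen on the same SA values. CA1198 was one of the rises. It was at 0.45 for FLIP94-508C, 0.44 for ICC3996 and -1.01 for Lasseter after ACC, against 2.13 to 3.01 after SA. The difference was 2.59 (SE 0.46, adjusted p = 0.0161 in limma).

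LS0342 differed in another way. It was at 0.39, 0.39 and 0.58 after SA in FLIP94-508C, ICC3996 and Lasseter, and its SA mean of 0.45 ± 0.11 (SD, n = 3) did not pass (adjusted p = 0.293 in limma). After ACC it was at -1.45, -2.45 and -2.07. The difference of 2.45 (SE 0.37, adjusted p = 0.0145 in limma) thus lay mostly in low ACC values.

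U152 moved in opposite directions. After SA it was at -0.94 for FLIP94-508C, -0.94 for ICC3996 and -1.15 for Lasseter, and after ACC at 1.57, 1.5 and 0.94. The fall under SA passed (mean -1.01 ± 0.12, SD, n = 3; adjusted p = 0.0155 in limma), and the difference was -2.35 (SE 0.33, adjusted p = 0.00644). U096 was at 0.86, -0.03 and -1.04 after SA and at 1.53, 2.47 and 2.12 after ACC. Its SA values straddled control, and the difference of -2.11 (SE 0.43, adjusted p = 0.0279 in limma) lay in high ACC values.

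The calls against ACC depended on which samples were fitted, while the differences themselves kept their direction. CA1198 and LS0342 each lost the call in 6 of 9 leave-one-out fits, U096 in 7 and U152 in 5. Over the alternatives tried, the difference lay between 1.88 and 3.05 for CA1198, between 1.76 and 2.85 for LS0342 and between -2.67 and -1.85 for U152. For U096 it lay between -2.83 and -1.46. The count of 7 was 7 without the FLIP94-508C sample after SA and 6 without that genotype's sample after ACC. It was 0 without the Lasseter sample taken 27 h after SA, without the late ACC sample of ICC3996 and without each genotype in turn, 2 without the Lasseter sample after ACC, 4 without the ICC3996 sample after SA, and 0 with samples scaled to equal spread. In the fit of these 6 samples alone 23 features passed, 5 of them among the 7.

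SA differed from MeJA at 27 h for 13 features (2.49%), 9 higher (1.72%) and 4 lower (0.765%) under SA. The 9 were all SA rises and the 4 all SA falls, lists that held 4.78% and 9.75% of the tested features. The choice of these lists on the same SA values favours such overlap. U212 was at -0.10 for FLIP94-508C, 0.10 for ICC3996 and 0.23 for Lasseter after MeJA, and its difference was 3.05 (SE 0.73, adjusted p = 0.0451 in limma). LS0688 was at 1.81, 1.82 and 3.58 after SA and at -0.90, -0.64 and -0.14 after MeJA. The groups did not overlap, which its choice by the size of the difference favours. The difference was 2.96 (SE 0.67, adjusted p = 0.0451 in limma).

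Of the lower features, U392 was at -2.36 for FLIP94-508C, -2.43 for ICC3996 and -1.0 for Lasseter after SA and at -0.14, -0.35 and 0.04 after MeJA. Its difference was -1.78 (SE 0.40, adjusted p = 0.0451 in limma). U152 was at 0.70, -0.04 and 0.82 after MeJA, and its difference was -1.5 (SE 0.33, adjusted p = 0.0451 in limma). U152 passed against both other compounds, but its call against MeJA was lost in 9 of 9 leave-one-out fits and its call against ACC in 5 of 9. Against MeJA, the calls of U212 and LS0688 were lost in 8 and that of U392 in 9 of 9 such fits.

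All adjusted p of the MeJA comparison that passed lay between 0.0451 and 0.0460, close to the threshold. With a variance trend in limma 0 features passed, with 60 of 523 at an unadjusted p under 0.05. The count was 0 without each genotype in turn, without the Lasseter sample after SA and without the ICC3996 or the Lasseter sample after MeJA, 1 without the FLIP94-508C sample after SA and 2 without the FLIP94-508C sample after MeJA.

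**Figure D5:**
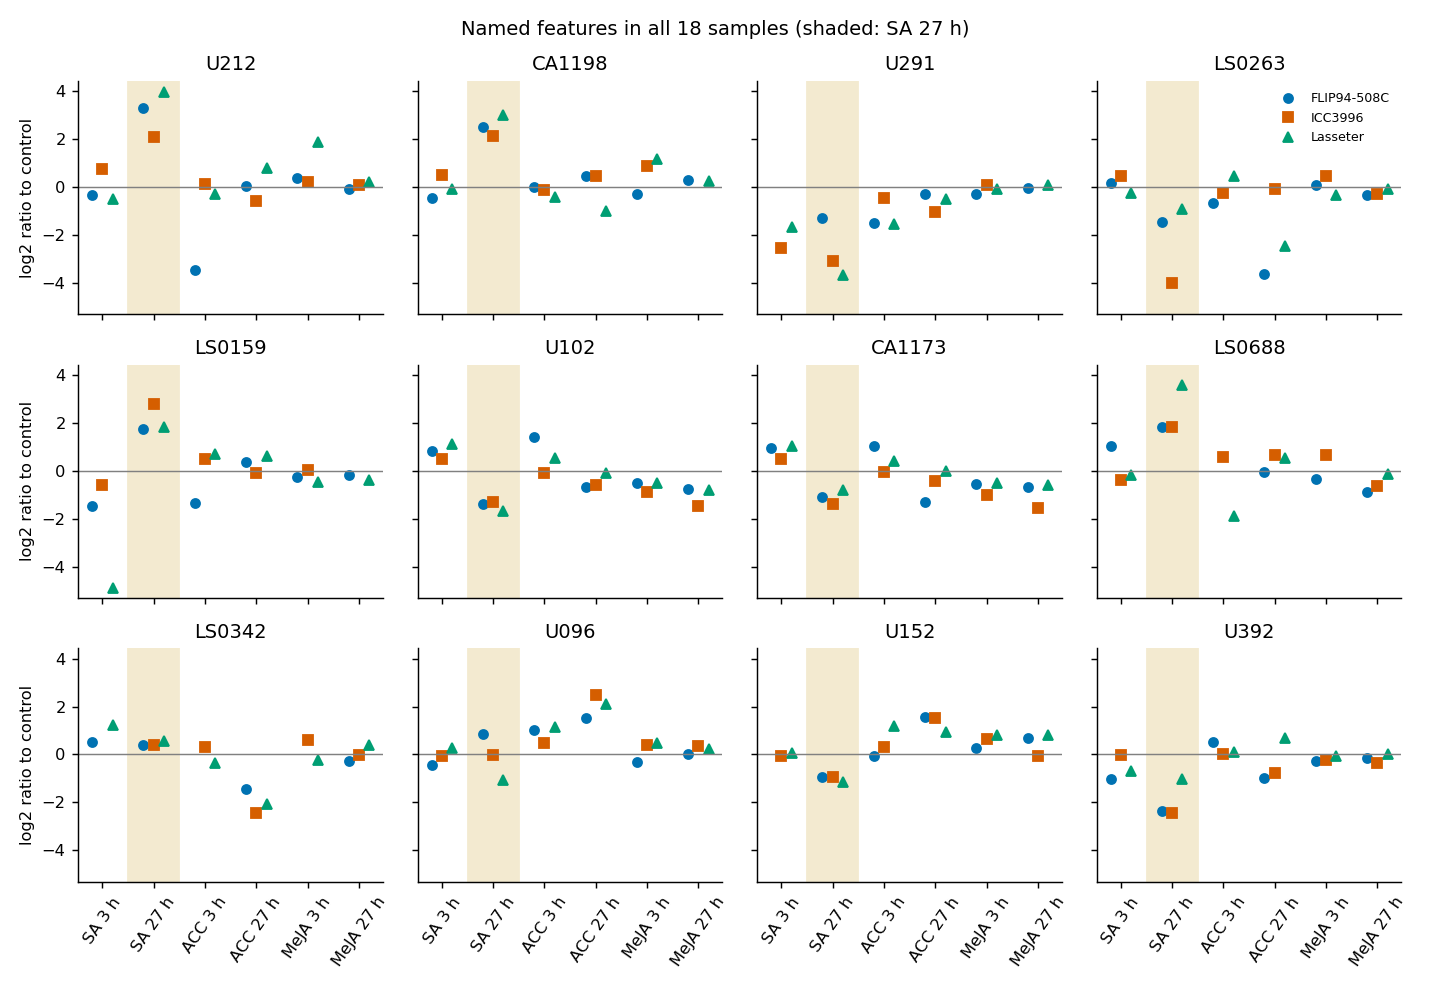
Log2 ratio to untreated control (vertical axis) of 12 named features in the 18 samples, by compound and harvest time (horizontal axis), with 1 symbol per genotype and the samples taken 27 h after SA shaded. U212 and CA1198 are above 2 in all 3 shaded samples, and U152 is below 0 after SA and above 0 after ACC at 27 h.

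The called features were spread over the identifier classes. Of 100 tested CA features 4 rose and 9 fell, of 88 LS features 7 rose and 4 fell, and of 335 U features 14 rose and 38 fell. The share that changed was 13.0%, 12.5% and 15.5%. LS features had more rises than falls among the calls, and after sample medians were subtracted 12 rose and 3 fell. This excess depended on the setting. It was absent without the FLIP94-508C sample after SA (0 rose and 1 fell) and without the Lasseter sample (0 and 4). Dropping the FLIP94-508C genotype (0 and 2) or the Lasseter genotype (2 and 2) also removed it. Nor was it seen without the missing-value filter (11 and 17), with equal SD (1 and 1) or over complete features (1 and 2). It held without the ICC3996 sample (6 and 1), without the ICC3996 genotype (8 and 1) and without the MeJA samples (2 and 1). It also held with equal median absolute deviation (6 and 2), a variance trend (8 and 4) and sample weights (12 and 10). It held without the genotype term (10 and 4) and on the 3 late SA samples alone (10 and 4). The methods' t-test before adjustment gave 9 and 6. No feature of any class passed in the fit of the SA samples alone, which therefore could not show it. The median ratio of the tested LS features was 0.16, against -0.17 for CA and -0.16 for U. Without a test, 8 of the 14 features at least 2-fold higher in all 3 genotypes were LS features. Of the 16 lower ones, 14 were U features. The array held 117 CA, 156 LS and 442 U features, so U was the largest class before any selection.

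Features that could not be tested added to both directions. Of the 192, 56 had a value in all 3 late SA samples, with 5 at least 2-fold higher and 4 at least 2-fold lower in every genotype. Without the filter on missing values 5 of these 5 and 2 of these 4 passed, which their choice on the same late SA values favours. The 5 had values in 5 to 14 of the 18 samples and the 4 in 10 to 13. The spread of the sparsest features thus rested on few values. U032, singled out after its values were seen, was at 2.12 for FLIP94-508C, 2.91 for ICC3996 and 3.09 for Lasseter. With U212 and CA1198 it was 1 of 3 features at least 4-fold higher in all genotypes, and without the filter its mean of 2.70 ± 0.52 (SD, n = 3) passed (adjusted p = 0.0016 in limma). At 3 h it had a value only in Lasseter, at 0.92.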

How the data were processed

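RNA abundance was measured on a 2-colour spotted cDNA array. Per the series' design text, the authors quantified spots with ImaGene 5 (5.5 per the deposited readme) and processed them in GeneSight 3. Flagged spots were dropped, local background means were subtracted, channels were normalised by Lowess, and the Cy5/Cy3 ratio was put on a log2 scale after a shift, with duplicate spots then merged. The deposited values were taken as the authors' log2 ratios. No source used here states how large the shift was, and a shift brings the ratios of dim spots closer to 0.

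A feature was tested if every one of the 6 groups had 2 or more values for it (523 of 715). limma 3.58.1 in R 4.3.3 was fitted to all 18 samples, with 6 compound-by-time means and a genotype term, because every group held the same 3 genotypes. Complete features left 10 residual degrees of freedom. Each of 4 comparisons had its own Benjamini-Hochberg adjustment over all 523 features, with two-sided tests and a threshold of 0.05. The p-values measure the spread left over all 18 samples once the group means and the genotype term are fitted. They do not measure the spread of the 3 late SA values alone, nor that between plants, since the authors' columns are means. The code was tested on simulated data. Omitted spots, 13.3% to 16.5% of the features in the late SA samples, limit the precision, and arrays give no read depth.

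Named features were the 2 largest in each direction that passed and were measured in all samples compared, and for genotype agreement the 2 with the smallest and the 2 with the largest range. Members and rules were chosen with earlier results of these data known. Alternatives were missing-value filters, centring, scaling, variance models, sample weights, the genotype block, smaller fits, the methods' t-test and leaving out samples.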

Additional observations from a re-analysis of the deposited data

Results flagged for a closer look

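The ratio to control after SA differed between 27 h and 3 h for 11 features by the test of the difference itself in limma. The named ones were LS0159 (difference 4.43) and U212 (3.15), higher at 27 h, and U102 (-2.28) and CA1173 (-1.93), lower at 27 h. All 4 had groups that did not overlap between the times, which their choice as the largest passing differences favours. The share of all features without overlap is not given here, so the count of 4 cannot be weighed against it. The group of interest has 3 samples, too few for a search for a sample far from the others.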

How the results depend on the processing

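No named feature changed direction under any alternative tried. The count of 76 features for the late SA response became 124 without a feature filter, 42 over features with a value in all 18 samples, 18 with samples scaled to equal SD, 125 with sample weights, 34 without the MeJA samples (an alternative added after seeing the data), 0 in the fit of the SA samples alone and 0 by the methods' t-test after adjustment (82 before it). With equal median absolute deviation, also added after seeing the data, it was 53. Leave-one-out fits gave 8 to 54. The difference from 3 h (11) became 20, 2, 5, 4 and 3 without a filter, over complete features, with equal SD, with equal median absolute deviation and without MeJA, and 0 when only SA samples were fitted, with a leave-one-out range of 0 to 26. The difference from ACC (7) became 2 over complete features, 0 with either scaling or without MeJA, 42 with sample weights and 23 in the fit of the 6 samples compared, range 0 to 7. The difference from MeJA (13) became 0 over complete features, with a variance trend and in the fit of the 6 samples compared, 1 with either scaling and 65 with sample weights, range 0 to 11. Without the genotype term (no replicate block) the 4 counts were 83, 18, 14 and 7. The 30 features past 2-fold in every genotype became 87 at 1.5-fold, 25 (17 higher, 8 lower) with sample medians subtracted and 16 with equal SD. The sample weights were estimated with a warning that the tolerance was not reached. The limma fits with 0 calls had 35 to 129 features at an unadjusted p under 0.05. Causes were not tested. Arrays with 1 mean column per genotype limit what can be told apart.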

Other observations

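The array carries 3 control features named NORMCON with values, which entered no test. At 27 h after SA, CA0011 was at 0.10 ± 0.09 and CA0020 at 0.03 ± 0.04 (SD, n = 3), close to no change. CA0018 was at -0.89 for FLIP94-508C, -2.83 for ICC3996 and -1.31 for Lasseter. After ACC at 27 h CA0018 was at -2.24 in FLIP94-508C and -2.65 in ICC3996, and after MeJA at 27 h at -0.16 ± 0.04 (SD, n = 3). No source used here says how these features entered the authors' normalisation.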
